A study of Mus musculus with 2 samples.

Results

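The cells described here are endothelial cells in a sort of thymic epithelium: 193 of 7621 kept cells that carried messages of several vessel-lining genes and none of Epcam, the surface protein by which the sort was made. Mouse thymus was profiled by droplet single-cell RNA sequencing in 2 libraries, of which 1 is labelled Foxp1 KO (Cre+) and the other Foxp1 WT (Cre-), to ask what the transcription factor Foxp1 does in thymic epithelial cells. The tissue was broken up by force and by enzymes (liberase, DNase), passed over Percoll to concentrate its epithelium, and sorted for living cells that stained for EPCAM. Since both samples have KO in the genotype field, the groups follow title and library name, and libraries are called here by those labels. The Cre driver, the deleted part of the gene, the number of animals behind each library, and their strain, age and sex are not stated by the sources at hand.

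A cell was kept if it had at least 500 genes, at least 1000 UMIs (unique molecular identifiers, each standing for 1 captured RNA molecule) and at most 10% of its UMIs from mitochondrial genes. Members were chosen by these measured counts: a UMI in at least 3 of the 7 genes Pecam1, Cdh5, Kdr, Egfl7, Flt1, Emcn and Plvap, and 0 Epcam UMIs. The library labelled KO held 142 members among 3584 kept cells, and the library labelled WT held 51 among 4037. They are set beside the 159 and 67 cells that passed the same marker rule with at least 1 Epcam UMI, called Epcam-positive marker cells below, and beside the 3283 and 3919 other kept cells, which failed the marker rule. With 1 library per label there is no replicate, so no test of the labels was made, and the intervals given are exact 95% intervals for counting error only.

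Endothelial cells line blood and lymph vessels, hold to each other through junction proteins such as VE-cadherin (Cdh5) and claudin-5, and respond to VEGF through receptors that include Kdr and Flt1. In the thymus they carry oxygen and nutrients into a densely packed tissue, and specialised venules near the border of cortex and medulla let blood-borne progenitors in and mature T cells out. Thymic endothelium is also known as a source of signals to its neighbours, such as stem cell factor (Kitl) and BMP4.

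Foxp1, the targeted gene, was not lower in the library labelled KO. Members held 211 Foxp1 UMIs in the library labelled KO, or 467 CPM (the gene's share of the members' total UMIs, scaled so that all genes sum to 1e6), and 82 UMIs or 379 CPM in the library labelled WT. Among the other kept cells Foxp1 stood at 408 and 254 CPM in the same order. The observed level was thus higher in the library labelled KO in both classes of cell, a difference that was not tested. In members the counting interval of that ratio includes no difference. These counts cannot decide whether the label is right, since it is not known which exons were removed or in which cells Cre acted. A whole-gene count does not show which exons were read, and Foxp1 (mm10 chr6:98925338-99522721, minus strand) overlaps the annotated genes Gm20696, Gm20705, Gm22328 and Gm49348 on the same strand.

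The 7 markers chose the members, so their levels are a description. VE-cadherin (Cdh5), which joins endothelial cells to each other, had a UMI in 134 of the 142 members labelled KO and in 49 of the 51 labelled WT. Egfl7, a secreted endothelial protein, was present in 136 and 49 members. Flt1 and Kdr, the VEGF receptors, were found in 114 and 43 members and in 93 and 39. Plvap, a protein of the diaphragms of fenestrated capillaries and venules, was found least often, in 29 and 15. The median member had 5 of the 7 markers in both libraries. Members with exactly 3 markers, just inside the rule, were 15 and 3 cells, with 6344 and 2976 CPM over the 20 genes of a further endothelial list. Cells with exactly 2 markers and 0 Epcam UMIs, just outside it, were 17 and 9, with 1111 and 311 CPM over that list. Marker cells with exactly 1 Epcam UMI, just outside the other limit, were 35 and 6, with 2933 and 4051 CPM.

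That list of 20 pan-endothelial genes was not part of the rule, and it was present in the members throughout. It includes the receptors Tie1 and Tek, the adhesion genes Esam and Icam2, the tight junction gene Cldn5 and the TGF-beta co-receptor Eng. Members labelled KO averaged 22.5 UMIs over the list per cell and those labelled WT 27.8, against 1.84 and 2.57 in the other kept cells. At least 3 of the 20 genes were found in 141 of 142 and 51 of 51 members. Against the other kept cells all 20 were at least 2-fold higher in members in both libraries, with a median log2 ratio of 6.47 (labelled KO) and 6.52 (labelled WT). Of all 19023 genes compared this way, 6.56% were at least 2-fold higher in members and 6.45% lower. Because the rule picks cells by genes that go with this list, these values describe the cells and test nothing.

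**Figure D1:**
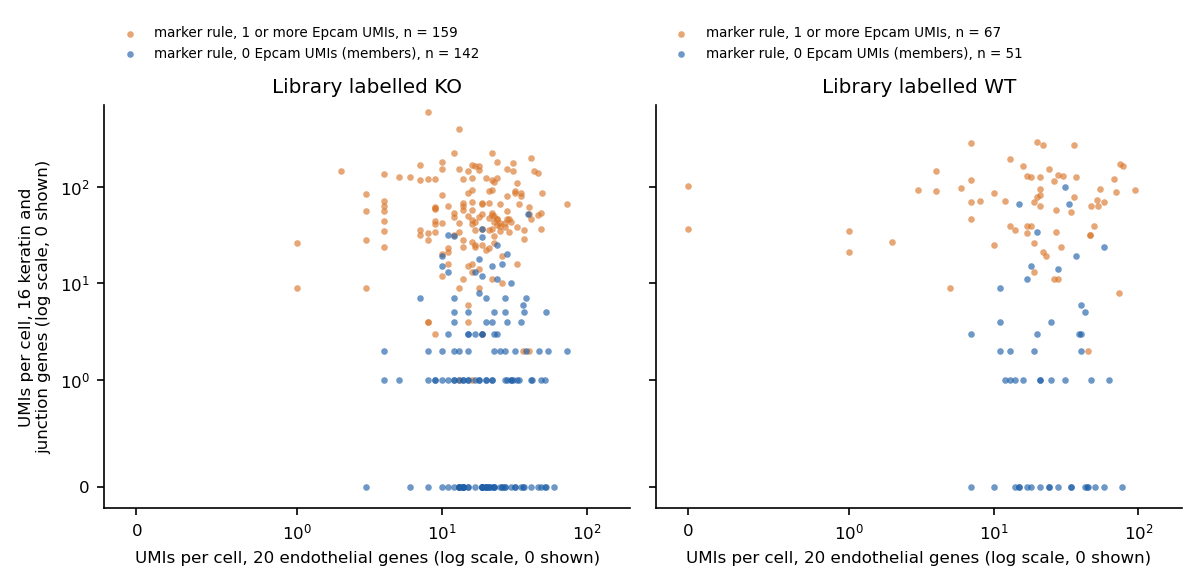
UMIs per cell over the 20 endothelial genes (x axis) and over 16 keratin and epithelial junction genes (y axis), both on log scales that show 0, for each cell that passed the marker rule in the library labelled KO (left) and WT (right). Members (142 and 51 cells) and Epcam-positive marker cells (159 and 67) overlap along the x axis, while 53 and 19 members lie at 0 on the y axis.

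The genes that stood highest above the other kept cells, ranked by the interval bound nearest to 0 in the library where it was smaller, were Adgrl4, Sox17, Cd93, Ctla2a, Cd36, Cldn5, Btnl9, Gpihbp1, Tcf15, Eng, Gng11 and Cd300lg. Adgrl4, an endothelial adhesion receptor, had 715 CPM in members labelled KO and 564 CPM in those labelled WT, against 0.823 and 0.716 CPM in the other kept cells. Sox17, a transcription factor of arterial endothelium, had 199 and 185 CPM in members, against 0.137 and 0.130 CPM. Cd36, a fatty acid transporter of capillaries, had 3003 and 2816 CPM, against 7.73 and 5.14 CPM. Members of both libraries were thus far above the other kept cells for each of them. Among the genes furthest below the other kept cells were Bpifa1, Gm50255, Krtdap, Lrmp, Mctp1, Eya4, Ehf, Ifi202b, Dclk1, Robo1 and Krt5, which include genes of airway, keratinocyte and tuft-like epithelium.

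Promoter sequence from RefSeq (GRCm38.p6, from 250 bases before to 50 after a start) was matched for 6 of those 12 genes, and the 3 highest in the ranking with an entry are printed because their genes are among the sharpest markers of these cells. Capitals mark CNGGAAG on either strand, overlaps allowed, a pattern that contains the GGAA core bound by ETS factors such as Erg and Fli1, which the members express. The windows are Adgrl4 at chr3:151437632-151437931 (plus strand), Ctla2a at chr13:60936576-60936875 (minus strand, the first of 2 listed) and Cd36 at chr5:17835847-17836146 (minus strand).
Adgrl4: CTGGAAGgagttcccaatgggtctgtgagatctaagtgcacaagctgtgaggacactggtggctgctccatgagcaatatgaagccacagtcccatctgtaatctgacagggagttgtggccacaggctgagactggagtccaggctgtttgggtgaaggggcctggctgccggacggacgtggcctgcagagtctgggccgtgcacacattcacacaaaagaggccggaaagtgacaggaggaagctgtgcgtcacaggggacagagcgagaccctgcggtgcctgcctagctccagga
Ctla2a: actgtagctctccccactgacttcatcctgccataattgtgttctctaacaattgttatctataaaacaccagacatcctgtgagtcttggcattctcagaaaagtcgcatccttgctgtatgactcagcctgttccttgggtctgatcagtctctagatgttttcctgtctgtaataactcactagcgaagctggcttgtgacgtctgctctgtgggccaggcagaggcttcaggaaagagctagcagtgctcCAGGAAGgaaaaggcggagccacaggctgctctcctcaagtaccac
Cd36: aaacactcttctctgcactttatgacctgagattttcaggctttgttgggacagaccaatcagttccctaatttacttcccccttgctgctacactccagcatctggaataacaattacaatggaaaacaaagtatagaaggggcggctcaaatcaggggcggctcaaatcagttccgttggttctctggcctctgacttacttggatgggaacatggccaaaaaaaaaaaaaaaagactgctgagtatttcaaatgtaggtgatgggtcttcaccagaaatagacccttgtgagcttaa
The pattern occurs 1 time in the Adgrl4 window, 1 time in the Ctla2a window and 0 times in the Cd36 window. It is in 3 of the 6 matched genes of the ranking, in 7 of the 10 matched genes of the endothelial list, and in 9365 of all 27025 genes with a window. Counted by window of the same length, it is in 4 of 7, in 7 of 10 and in 31.9% of all 32851. A narrower pair, CAGGAAG and CCGGAAG, was added after these counts had been seen, because N also admits T. By gene the pair is in 2 of the 6, in 4 of the 10 and in 6256 of the 27025. By window it is in 3 of 7, in 4 of 10 and in 20.9% of all, and it is not in the Adgrl4 window. A match describes letters only and shows no binding.

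Capillary genes were found in nearly all members. A UMI in at least 3 of 16 capillary genes was found in 140 of 142 members labelled KO (98.6%) and in 51 of 51 labelled WT. With every cell thinned to 2000 UMIs, which leaves out 48 and 11 shallower members, the shares were 96.8% and 100%. At that depth they were 76.1% and 73.1% of Epcam-positive marker cells, and 1.26% and 1.35% of the other kept cells. Fabp4, a fatty acid chaperone of capillary endothelium, had 15407 CPM in members labelled KO and 14020 in those labelled WT. Gpihbp1, which anchors lipoprotein lipase to the capillary wall, had 1101 and 1013 CPM. The water channel Aqp1 had 680 and 925 CPM, and the caveolar coat gene Cav1 had 1320 and 1008 CPM. Fabp4 UMIs were also found in 22.6% and 26.7% of the other kept cells at 2000 UMIs, so a Fabp4 UMI alone does not mark a member, whereas Cd36 UMIs were found in 1.01% and 0.487% of them.

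Arterial genes were carried by a smaller share. At least 3 of 16 arterial genes were found in 42.3% and 54.9% of members as deposited. At 2000 UMIs the shares were 35.1% and 42.5%, against 2.51% and 3.44% of the other kept cells. Epcam-positive marker cells, which were deeper, had 63.5% and 70.1% as deposited, and 12.3% and 7.46% at 2000 UMIs. Cxcl12, the chemokine that guides progenitors through its receptor Cxcr4, had 1504 and 1803 CPM in members, against 25.2 and 13.1 in the other kept cells. The Notch ligand Dll4 had 88.6 and 78.6 CPM. Sema3g, a semaphorin of arterial endothelium, had 53.2 and 87.9 CPM. The gap-junction gene Gja5 had only 10 and 4 UMIs.

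Venous and portal genes were less clear. At least 3 of 16 were found in 31.0% and 45.1% of members, but also in 32.5% and 36.6% of the other kept cells. At 2000 UMIs the shares were 21.3% and 17.5% against 7.004% and 7.05%. Epcam-positive marker cells had 61.6% and 79.1% as deposited, and 9.03% and 14.9% at 2000 UMIs. Selp (P-selectin), the adhesion molecule by which portal endothelium captures progenitors, had 5 UMIs in 4 members labelled KO and 7 UMIs in 3 members labelled WT. Ackr1, a chemokine receptor of venules, had 2 and 5 UMIs, each in 1 member. Vcam1 and Icam1, which hold leukocytes, were not set apart from the epithelium: Vcam1 had 151 and 120 CPM in members and 238 and 226 CPM in the other kept cells, and Icam1 had 272 and 282 CPM against 335 and 348 CPM. Lymphatic genes were nearly missing. At least 3 of 10 lymphatic genes were found in 1 of 142 and 0 of 51 members, and Prox1, the regulator of lymphatic identity, had 3 and 0 UMIs. In Epcam-positive marker cells the lymphatic shares were 18.2% and 17.9% as deposited, and 1.94% and 0% at 2000 UMIs. For the 0 of 51 members, 3 counts of 51 would be a share of 5.88% of cells with such UMIs, and the exact 95% interval reaches 6.98%.

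Of 20 genes of endothelial transcription factors at least 3 were found in each of the 142 and 51 members, and 17 of the 20 were at least 2-fold above the other kept cells in both. The ETS factor Fli1 had 645 and 740 CPM in members labelled KO and WT, against 2.97 and 1.95 CPM in the other kept cells. Sox18, a vascular SOX factor, had 454 and 398 CPM against 2.06 and 3.12. The flow-induced factor Klf2 had 928 and 499 CPM against 60.7 and 75.7. The hypoxia factor Epas1 had 447 and 416 CPM against 10.6 and 7.75. Foxp1, Klf4 and Foxo1 were the 3 that did not reach 2-fold in both.

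Among signalling genes, members held both receptors and ligands. Over all 19023 genes compared with the other kept cells, 6.56% were at least 2-fold higher in members in both libraries and 6.45% lower. In the BMP and TGF-beta list 11 of 16 genes were at least 2-fold above the other kept cells in both libraries and 1 was at least 2-fold below. Acvrl1, the type I receptor of endothelial BMP9 signalling, had 88.6 and 97.1 CPM against 1.56 and 1.17. The BMP target Id1 had 711 and 421 CPM and Id3 had 1249 and 1027 CPM. In the VEGF and angiopoietin list 9 of 14 were at least 2-fold higher and 2 lower, with the angiopoietin receptor Tek at 253 and 264 CPM. In the Notch list 7 of 16 were higher and 1 lower, with Notch1 at 128 and 134 CPM and Notch4 at 50.9 and 32.4 CPM.

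The ligands by which thymic endothelium is known to act on its neighbours were unequal. Kitl, which sustains early thymic progenitors, had 538 and 583 CPM in members, against 30.3 and 35.0 CPM in the other kept cells. Bmp4, which supports epithelial recovery, had 18 UMIs (39.9 CPM) in members labelled KO and 2 UMIs (9.25 CPM) in those labelled WT. Il33 had 0 UMIs in members of both libraries. Of 14 such ligands, 4 were at least 2-fold above the other kept cells in both libraries and 1 was at least 2-fold below. Over all genes these shares were 6.56% and 6.45%.

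Of 16 basement membrane and matrix genes, 12 were at least 2-fold above the other kept cells in both libraries and 0 were lower. The type IV collagen gene Col4a1 had 1032 and 865 CPM in members, against 174 and 134 CPM. Sparc, a matrix-binding glycoprotein, had 1285 and 1248 CPM against 56.2 and 38.0. Perlecan (Hspg2) had 377 and 305 CPM against 19.5 and 18.7. Junction genes differed among themselves: Cldn5 had 629 and 670 CPM against 1.42 and 0.976, whereas occludin (Ocln) had 11.1 and 13.9 CPM against 74.6 and 78.8.

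Endothelial and epithelial messages were then compared between the members and the Epcam-positive marker cells. The UMIs per cell over the 20 endothelial genes were close in the library labelled WT, 27.8 in members and 26.6 in Epcam-positive marker cells, and 22.5 and 19.1 in the library labelled KO. The 16 keratin and epithelial junction genes were far apart: members averaged 3.89 and 7.98 UMIs per cell (median 1 in both), against 68.3 and 85.5 (medians 47 and 72). The other kept cells averaged 44.9 and 53.1. No keratin or junction UMI was found in 53 of 142 and 19 of 51 members, against 1 of 159 and 0 of 67 Epcam-positive marker cells. At least 2 of the 16 genes were found in 52 and 20 members, and in 153 and 67 Epcam-positive marker cells. Some members held more keratin and junction UMIs than endothelial ones, such as 53 against 39 (labelled KO) and 99 against 31 (labelled WT). Epcam-positive marker cells were also deeper, with a median of 11005 and 15388 UMIs against 2471 and 3291 in members and 5089 and 6233 in the other kept cells. Over 20000 UMIs were found in 31 and 18 Epcam-positive marker cells and in 0 members. Whether Epcam-positive marker cells are 1 cell or 2 cells in a droplet was not tested.

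In CPM, 660 of 9926 genes (6.65%) were at least 2-fold higher in members than in Epcam-positive marker cells in both libraries, and 979 (9.86%) were lower. Of the 19 endothelial genes with enough UMIs, 18 were higher and 0 lower, with medians of 2.47 and 2.23 log2, where all genes had medians of -0.15 and -0.10. The exception, Calcrl, a receptor for adrenomedullin, stood at 0.97 and 0.70 log2. Of the 16 keratin and junction genes 12 were lower and 0 higher (medians -2.21 and -1.72), as were 7 of 9 MHC class II genes (medians -1.47 and -1.26) and 8 of 10 medullary epithelial genes. In CPM the endothelial genes thus stood higher and the epithelial genes lower in members. The 2 classes were split by Epcam UMIs, and epithelial genes go with Epcam. Their lower level in members therefore describes the classes and tests nothing. As a CPM is a share of each cell's total, a deeper class with the same endothelial UMIs per cell has a lower endothelial CPM. With cells over 20000 UMIs left out the counts were 540 and 693, and with genes of at least 200 UMIs they were 286 and 427. Both settings test fewer genes, so these counts are not out of 9926.

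The genes that ranked highest in members were Igfbp7, Ly6c1, Sox18, Abcc9, Cxcl12, Cldn5, Ramp2, Rassf9, Fbln2, Tm4sf1, Aqp1 and Tcf15. Igfbp7, a secreted vessel protein, had 1728 and 1877 CPM in members labelled KO and WT and 236 and 270 CPM in Epcam-positive marker cells. Ly6c1, a surface protein of capillaries, had 1920 and 1826 CPM against 281 and 322. Abcc9, a potassium channel subunit better known from pericytes, had 13 and 45 UMIs in members, of which 29 of the 45 came from 1 cell. Furthest lower were Gm50255, Sst, Morc1, Ccl1, S100a9, Sgcz, Gal, Ehf, Ptprq, Mucl2, Gm49708 and Skint2. The epithelial ETS factor Ehf had 13.3 and 4.62 CPM in members and 113 and 120 CPM in Epcam-positive marker cells.

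**Figure D2:**
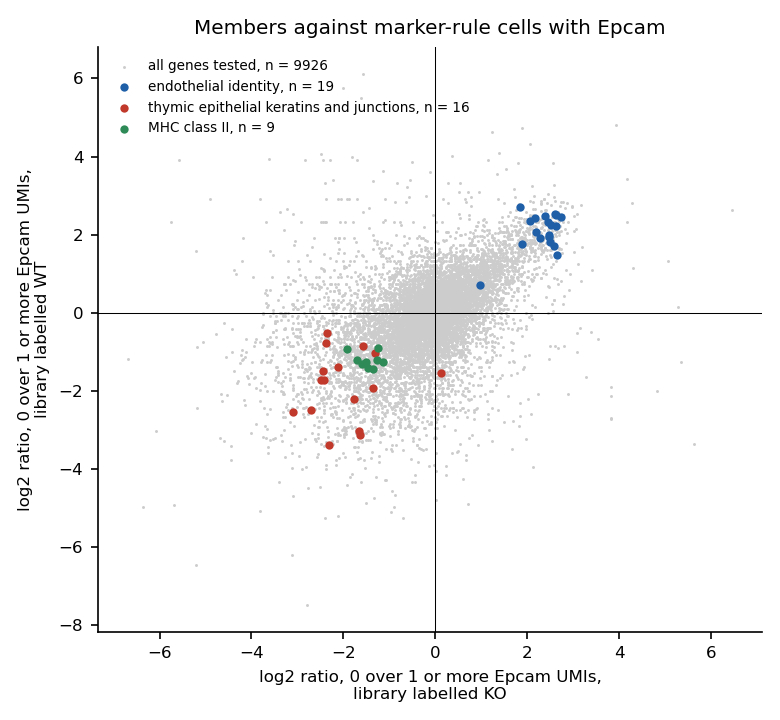
log2 ratio of CPM in members over Epcam-positive marker cells, in the library labelled KO (x axis) and WT (y axis), for 9926 genes (grey). The 19 endothelial genes tested lie above 0 in both libraries, the 9 MHC class II genes lie below 0 in both, and 15 of the 16 keratin and junction genes do.

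MHC class II messages were lower in members but not missing. Cd74, the class II invariant chain, had 4361 and 4194 CPM in members labelled KO and WT, 9612 and 10079 CPM in Epcam-positive marker cells, and 8064 and 8830 CPM in the other kept cells. H2-Ab1 had 1573 and 1544 CPM in members and 3288 and 3610 CPM in the other kept cells. A Cd74 UMI was found in 55 of 94 and 20 of 40 members at 2000 UMIs, against 92.5% and 90.7% of the other kept cells. A single member held 14.6% and 19.9% of its library's class II UMIs. The class I genes differed little, with B2m at 2594 and 2663 CPM in members and 3111 and 3555 CPM in the other kept cells. The part that free RNA from epithelium has in these values was not tested.

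Genes of further cell types were found in some members, and several lists rested largely on 1 cell. At least 2 of 14 thymocyte genes were found in 3 and 1 members, and at least 2 of 8 mesothelial genes in 0 and 0. In the library labelled KO 1 member held 82.8% of the thymocyte UMIs (49 of 50 Cd3g UMIs) and 1 held 54.5% of the fibroblast UMIs. In the library labelled WT 1 member held 61.2% of the UMIs of the cortical epithelial list. Summed over that list, members labelled WT had 2895 CPM against 1217 in the other kept cells, and members labelled KO had 707 against 1316. The fibroblast list summed to 609 CPM in members labelled KO against 212 in the other kept cells, and to 166 against 150.3 for WT. The thymocyte list summed to 142 against 85.8 CPM for KO and to 153 against 94.2 for WT. At least 2 of 12 pericyte and smooth muscle genes were found in 7 and 4 members, of 13 myeloid genes in 15 and 6, of 10 fibroblast genes in 16 and 2, and of 10 erythroid and platelet genes in 2 and 3. At least 2 of 10 cortical epithelial genes were found in 39 and 20. The pericyte gene Pdgfrb had 4 and 1 UMIs, and the leukocyte gene Ptprc had 1 and 9.

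Of kept cells labelled KO 3.96% were members (interval 3.35 to 4.65%), and of those labelled WT 1.26% (0.942 to 1.66%). The ratio was 3.14 (2.26 to 4.41). Epcam-positive marker cells were likewise a larger share in the library labelled KO, so that all marker-rule cells were 8.40% of kept cells against 2.92%. Members were 47.2% and 43.2% of the marker-rule cells (intervals 41.4 to 53.0% and 34.1 to 52.7%), which overlap. Cells with 0 Epcam UMIs, whatever their markers, were 24.6% and 20.9% of kept cells. The sort was set on EPCAM protein and each share comes from 1 sort, so a difference between the labels and a difference between the sorts cannot be told apart. Of the barcodes, 5 occur in both libraries, and 1 of those is a member, in the library labelled KO.

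Between the labels, members differed by at least 2-fold in few of the genes tested. In members, 98 of 2640 genes with at least 50 UMIs (3.71%) were at least 2-fold higher in the library labelled KO and 80 (3.03%) lower. None of the 19 tested endothelial genes, of 16 transcription factors or of 13 capillary genes was past 2-fold, with medians of 0.15, 0.12 and 0.11 log2 beside 0.00 for all genes. In lists this short, 0 past 2-fold is near the share over all genes. Intervals lay above 0 for 3, 3 and 3 of these genes, and below 0 for 0, 0 and 1. Over all 2640 genes, 232 intervals lay above 0 and 211 below. With TMM scaling the counts were 120 higher and 63 lower. With every member thinned to 1000 UMIs they were 15 and 7, of which 3 and 3 were also among the 98 and 80. Thinning leaves fewer genes with at least 50 UMIs, so the 15 and 7 are not out of 2640 genes.

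The largest differences rested on few cells. Among the genes ranked highest in the library labelled KO were Zfp382, Scgb1a1, Pyy, Fam25c, Lyz1, Cdh18, Csn1s2a, Defa21, Igfbp5, Fabp6 and Lypd8, many of them genes of gut, airway or other peripheral tissue. Zfp382 had 158 UMIs in members labelled KO, 140 of them in 1 cell, and 0 in those labelled WT. Defa21, a gut defensin, had 55 UMIs, all in 1 cell. The 12 ranked lowest were Calb2, Ube4b, Oxt, 2810403D21Rik, Avp, Cblc, Nup98, Scaper, Cacna1a, Rapgef1, Tbata and Ttll4. Nup98, a nuclear pore gene, had 253 UMIs in members labelled WT, 227 of them in 1 cell, and the hormone gene Oxt had 86, all in 1 cell. At least 50% of the UMIs in the higher library came from 1 cell for 38 of the 98 higher genes and 35 of the 80 lower ones. The median gene owed 33.5% and 41.3% of its UMIs to 1 cell, against 7.14% and 14.2% over all genes tested in members labelled KO and WT. Without each gene's top cell in each library, 75 of the 98 and 31 of the 80 were still past 2-fold.

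**Figure D3:**
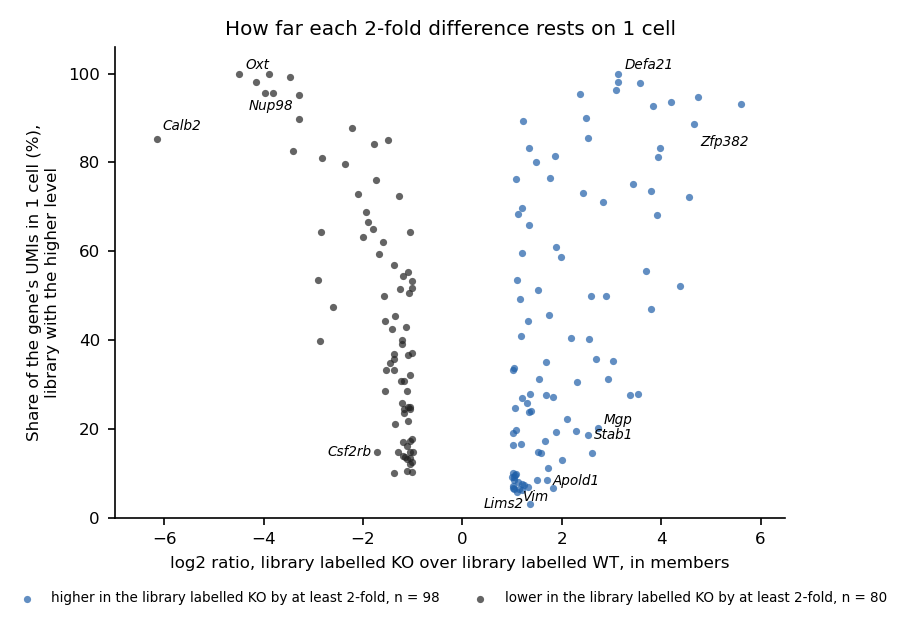
For the 98 genes at least 2-fold higher and the 80 at least 2-fold lower in members of the library labelled KO, the log2 ratio (x axis) and the share of the gene's UMIs held by 1 cell in the library with the higher level (y axis, percent). The most extreme ratios lie near the top, such as Oxt at 100%, while Lims2 lies at 3.21%.

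Differences spread over many members were smaller. Except for Klf2, which was not called, the genes in this paragraph were chosen after their values were seen, from the 38 and 24 for which 1 cell held at most 25% of the UMIs. Lims2, an adaptor of integrin adhesions, had 414 CPM (187 UMIs in 93 cells) in members labelled KO and 162 CPM (35 UMIs in 27 cells) in those labelled WT, a log2 ratio of 1.36 (0.83 to 1.92). Apold1, an immediate early gene of endothelium, had 210 and 64.7 CPM (1.70, 0.88 to 2.63). The intermediate filament gene Vim had 715 and 333 CPM (1.10, 0.73 to 1.49), and the endothelin receptor gene Ednrb had 224 and 106.4 CPM (1.07, 0.41 to 1.79). The scavenger receptor gene Stab1 had 106.3 and 18.5 CPM (2.52, 1.07 to 4.46), the latter from 4 UMIs. The Notch target Hes1 had 328 and 162 CPM (1.02, 0.48 to 1.59). In the other direction Csf2rb, a cytokine receptor chain of the venous and portal list, had 66.4 and 217 CPM (-1.71, -2.42 to -1.02). Klf2 stayed under 2-fold, at 928 and 499 CPM (0.89, 0.59 to 1.21).

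Immediate early and heat shock genes are known to be switched on when tissue is taken apart, and in members they leaned one way. All 16 were above 0 log2 (library labelled KO over WT), 0 were past 2-fold, and 7 had intervals above 0, with a median of 0.39. Over all 2640 genes tested 1333 were above 0 and 232 had intervals above 0. Over all cells that met the marker rule, whatever their Epcam UMIs, the list's median was -0.063. Jun, a subunit of the AP-1 factor, had 977 and 532 CPM in members (0.88, 0.58 to 1.19) and 999 and 1008 CPM in the other kept cells. Egr1, a zinc finger factor, had 1023 and 666 CPM (0.62, 0.35 to 0.90). The chaperone gene Hspa1a had 806 and 560 CPM in members (0.53, 0.23 to 0.84) and 250 and 472 CPM in the other kept cells. In the other kept cells 6 of the 16 were above 0 (median -0.04), and in Epcam-positive marker cells 4 were (median -0.19). The difference between the classes was not tested.

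**Figure D4:**
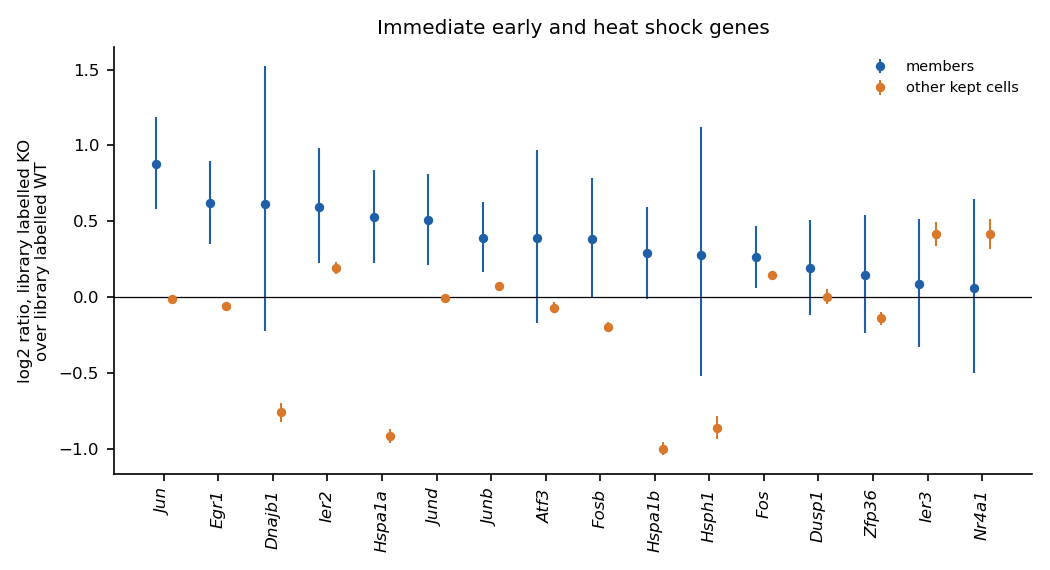
log2 ratio of the library labelled KO over that labelled WT for 16 immediate early and heat shock genes, in members (blue) and in the other kept cells (orange), with exact 95% counting intervals. Every blue point lies above 0, from 0.06 (Nr4a1) to 0.88 (Jun), while 10 of the 16 orange points lie below 0.

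The other lists were read where their genes had at least 50 UMIs over both libraries' members. Of 11 basement membrane genes 10 were above 0 and 1 below, with a median of 0.26 and 1 past 2-fold, Fn1 (fibronectin) at 137 and 37.0 CPM. In Epcam-positive marker cells 0 of the same 11 were above 0 and 11 below (median -0.19), and in the other kept cells 6 were above and 5 below (median 0.06). Of 8 class I genes 2 were above and 6 below 0 (median -0.18), where 1307 of all 2640 genes were below 0, with Psmb9, an immunoproteasome subunit, at 168 and 305 CPM. The keratin and junction list and the cortical epithelial list had medians below 0 as well. The medullary epithelial list did not: of 4 genes tested 2 were above and 2 below 0 (median 0.08). Of 5 keratin and epithelial junction genes tested 1 was past 2-fold higher (Cldn7) and 1 lower (Krt18), with a median of -0.72. Of 4 cortical epithelial genes 3 were past 2-fold lower (Ctsl, Ccl25 and Tbata), with a median of -2.30. Without each gene's top cell in each library, Cldn7 stood at 2.22 log2, Krt18 at -0.81 and Ctsl at 0.19. Ccl25 and Tbata then stood at -2.48 and -2.18. The part of epithelial messages in the class I values was not tested. Of 12 junction and barrier genes of endothelium 7 were above and 5 below 0, with 0 past 2-fold (median 0.27). Of 11 genes of leukocyte and progenitor traffic 5 were above and 6 below 0 (median -0.05). Of these, 2 chemokine genes were past 2-fold lower, Ccl21a at 88.6 and 268 CPM and Ccl25 at 46.5 and 338 CPM. Without its top cells Ccl21a stood at -0.49 log2. Of 11 interferon response genes 4 were above and 7 below 0 (median -0.02), with 1 past 2-fold higher, the antiviral gene Rsad2 at 157 and 74.0 CPM. Of 10 genes of BMP and TGF-beta signalling 4 were above and 6 below 0, with 0 past 2-fold (median -0.05). Of 7 venous and portal genes 1 was past 2-fold lower, Csf2rb. Most of the arterial (10 of 16), Notch (11 of 16) and cell cycle (13 of 14) genes had fewer than 50 UMIs over both libraries' members, so differences in them were not detectable at this depth. Members labelled KO held 451489 UMIs in all, and those labelled WT held 216263.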

How the data were processed

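Per the file headers, the authors' matrices were written by Cell Ranger 7.0.1 and give deposited UMI counts that are not normalized, and barcodes under 500 UMIs were already absent. Seurat and mm10 are also named, per the submitters' processing notes. Counts were summed over each class of cells and given as CPM with exact Poisson intervals, shares with Clopper-Pearson intervals and log2 ratios with conditional binomial intervals (scipy 1.17.1), all 95%. With 1 library per label no count test was run; edgeR 4.0.16 and DESeq2 1.42.0 served only for alternative scalings. Genes needed at least 50 UMIs over the classes compared; at least 2-fold was called, and a count of 0 was set to 3 for a ratio. Doublets were not removed. Besides the genes of the rule, named genes came from 29 lists or were the 12 per direction with the interval bound furthest from 0. That ranking left out mitochondrial, ribosomal, haemoglobin, Xist and Y-linked genes. Lims2, Apold1, Vim and Stab1 fell under neither source and were picked after their values were seen. Members and lists were chosen with earlier results of these data known. The ratio code was tested on simulated counts. Alternatives covered the cell filter, marker rule, depth, scaling, gene filter and Epcam rule.

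Positions came from GENCODE M21, found for 420 of 422 genes. Of 68 ranked genes, 11 overlap another gene on the same strand and 17 on the opposite strand, so their counts are less certain. The symbols Ccl19 and Ccl21a are shared with another entry. Some genes that the ranking names are not reported here.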

Additional observations from a re-analysis of the deposited data

Results flagged for a closer look

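Some genes had opposite signs in 2 comparisons made in the same way, with the intervals on opposite sides of 0. These differences were not tested, since each label has 1 library. For the log2 ratio of members over Epcam-positive marker cells, the value in the library labelled KO is given first and that labelled WT second. Among genes of peripheral tissue, hormones, cortical epithelium and the ranking between labels they were 2810403D21Rik -1.45 and 2.18, Cacna1a -2.44 and 1.12, Calb2 -2.41 and 1.499, Fabp6 1.16 and -2.71, Fam25c 0.37 and -3.60, Igfbp5 1.22 and -1.63, Lyz1 2.08 and -2.59, Oxt -2.01 and 5.74, Prss16 -3.63 and 3.95, Pyy 0.67 and -3.78, Scaper -0.64 and 2.84, Scgb1a1 1.77 and -1.56, Tbata -1.86 and 0.33 and Zfp382 5.63 and -3.37. Among immediate early genes they were Egr1 0.39 and -0.46 and Jun 0.55 and -0.40, and among others Ccl25 -1.68 and 0.58, Madcam1 0.93 and -1.85 and Trbc2 -1.61 and 5.49.

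For the log2 ratio of the library labelled KO over that labelled WT, the value in members is given first and that in the other kept cells second. Among vessel, mural and matrix genes they were Cxcl12 -0.26 and 0.94, Fabp4 0.14 and -0.25, Fn1 1.89 and -0.35, Klf2 0.89 and -0.32, Rgs5 0.99 and -0.14 and Tagln -1.01 and 0.53. Among antigen presentation and interferon genes they were H2-D1 -0.18 and 0.054, Ifitm3 -0.15 and 0.50 and Psmb9 -0.86 and 0.12. Among the others they were Ccl21a -1.60 and 0.85, Cd3g 3.58 and -0.90, Csn2 0.58 and -0.37, Ctsl -1.74 and 1.04, Egr1 0.62 and -0.059 and Hspa1a 0.53 and -0.92. Ratios with 0 UMIs on a side were computed against 3 counts, as for Zfp382, Scgb1a1, Pyy and Fam25c, which had 0 UMIs in members labelled WT, and Trbc2, which had 0 in members labelled KO. The 240 of 316 Ctsl UMIs in members labelled WT and the 49 of 50 Cd3g UMIs in members labelled KO were in 1 cell each. Of the other UMIs in members labelled WT, 1 cell held 86 of 86 for Oxt, 216 of 226 for 2810403D21Rik, 109 of 132 for Scaper, 45 of 47 for Cacna1a, 58 of 68 for Calb2 and 36 of 58 for Ccl21a. In members labelled KO 1 cell held 166 of 179 for Fabp6, 140 of 158 for Zfp382, 150 of 204 for Igfbp5, 78 of 96 for Pyy and 107 of 148 for Scgb1a1.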

How the results depend on the processing

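The ratio of members' shares stayed above 0 log2 under every cell and marker rule run, from 1.38 to 1.65. The members' share labelled KO was 3.06% under a stricter cell filter and 2.71% with at least 5 markers. The share of marker-rule cells with 0 Epcam UMIs moved most: 36.2% (KO, stricter filter), 39.0% and 24.4% (at least 2 markers), 74.6% and 82.5% (rules applied at 2000 UMIs). Between the labels, the counts of higher and lower genes (KO over WT) were 1387 and 2637 with no count filter, 5 and 7 with at least 200 UMIs, 35 and 22 in members with at most 1 keratin or junction gene (18 and 7 shared with the 98 and 80), and 342 and 280 over all marker-rule cells (25 and 14 shared). With at least 2 markers 128 were lower. Against Epcam-positive marker cells, 1480 were lower with equal weight per cell, 1128 higher with no filter, and 286 and 427 with at least 200 UMIs. Settings that change the cells, the depth or the count filter also change how many genes are tested. Their counts are not shares and cannot be compared directly with those of the main setting.

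Signs turned for Mucl2 (0.19, labelled KO, at least 5 markers); for Ube4b 2.34, 2810403D21Rik 0.56, Cblc 1.46 and Nup98 0.61 (at most 1 keratin or junction gene); for the immediate early median -0.063, Zfp382 -0.83, Pyy -0.10, Lypd8 -0.015 and Igf1 -0.63 (all marker-rule cells). Alternatives chosen after seeing the data were leaving out each gene's top cell and thinning members to 1000 UMIs. The first left 36 lower genes and turned Ube4b 1.41, 2810403D21Rik 0.069, Cblc 2.33, Ttll4 0.86 and Morc1 0.84 (labelled KO). The second left 15 and 7 genes and put Defa21 at -1.06. Defa21 had 0 UMIs in members labelled WT, set to 3 for the ratio, so that sign comes from this setting and is no reversal. The top cell was left out of each group compared, so more than 1 cell was removed per gene. In members labelled WT, 1 cell had held 210 of 214 UMIs for Ube4b and 216 of 226 for 2810403D21Rik. It was 152 of 153 for Cblc and 40 of 42 for Ttll4. For Morc1 and the other turned signs the cause was not tested. The immediate early median was otherwise 0.17 to 0.52. No paired analysis was possible because each label has 1 library. Counting error bounds every value, and spread between animals is not measured.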
